A study of Mus musculus with 12 samples.

Results

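The nuclear genes of the mitochondrial respiratory chain were followed in RNA of the mouse hypothalamus. The set was every gene whose symbol in the platform annotation starts with Nduf, Sdh, Uqcr, Cox4, Cox5, Cox6, Cox7, Cox8 or Atp5, read from probe sets that carry a single symbol, with Cox8b set aside. These prefixes gave 92 genes, and 91 of them reached a log2 signal of 6 or more on 3 or more arrays, the filter on dim genes, out of 17186 genes tested. Cox7b2, a testis form of a cytochrome c oxidase subunit, was the gene left out, with signals between 5.67 and 6.12 on the 12 arrays. The prefixes use no measured value. Cox8b also carries the prefix Cox8 but is left out of every count unless stated, and its values are given beside those of Cox7a1. By role the 91 genes comprised 6 core and 28 accessory subunits of complex I, 4 subunits of complex II, 8 of complex III, 17 of complex IV, 17 of complex V, and 11 assembly factors of complexes I and II, which the same prefixes cover.

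The mice were C57Bl/6J males of 21 weeks on standard chow, and all arrays were hybridized with RNA of the hypothalamus. Control mice (CON) received neither compound. ASP mice were exposed to the sweetener aspartame from before birth, first through the dam and after weaning in their own drinking water, at 46 mg/kg body weight. CGP mice came from dams that drank CGP 39551, which blocks NMDA-type glutamate receptors by competing with glutamate, at 5 mg/kg of the dam's body weight until postnatal day 28. ASP+CGP mice received both. RNA from all mice of a group was pooled, and each pool was measured on 3 arrays, named here by pool and replicate number (CON 1 to CON 3). Spread between arrays of a pool, and not between mice, is therefore what the p-values rest on, and treatment and pool cannot be told apart.

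The respiratory chain sits in the inner mitochondrial membrane. Complex I (NADH:ubiquinone oxidoreductase) and complex II (succinate dehydrogenase) pass electrons from NADH and succinate to ubiquinone, complex III (ubiquinol-cytochrome c reductase) passes them on to cytochrome c, and complex IV (cytochrome c oxidase) passes them to oxygen. Complexes I, III and IV pump protons, and complex V (ATP synthase) uses the gradient to make ATP, on which neurons depend heavily for ion transport and synaptic transmission. Most subunits are encoded in the nucleus, a few in mitochondrial DNA, and several subunits of complex IV exist in a widely expressed form and in forms restricted to tissues such as heart, skeletal muscle, brown fat, lung or testis.

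Array medians lay between 8.28 and 8.34 on the log2 scale, and arrays correlated across genes at 0.992 to 0.997 within a pool and at 0.986 to 0.995 between pools. Marker counts in this paragraph are genes at an adjusted p under 0.05 in limma. The shares of all genes past it were 4.08% in ASP vs CON, 0.628% in CGP vs CON and 1.75% in ASP+CGP vs CON. Of 15 measured markers of hypothalamic neurons, 7 were lower and 1 was higher in ASP than in CON, with 12 below 0. In CGP 5 and in ASP+CGP 7 of them were lower than in CON, and 4 of 8 cerebellar markers were higher in ASP+CGP. Markers of tissues outside the brain were also higher in the ASP pool than in CON. These were 10 of 10 measured markers of the adrenal cortex, 8 of 8 of the exocrine pancreas and 9 of 9 of white adipose tissue. In brown adipose tissue they were 4 of 6, with 0 below 0, and in striated muscle 0 of 13, with 8 below 0. Pituitary markers, made up of hormone genes and the receptor gene Ghrhr, differed between the pools as well. Relative to CON, 8 of 8 were higher in ASP, 7 of 8 higher in CGP and 6 of 8 lower in ASP+CGP. In RNA of a whole tissue, fewer cells of a type and less RNA per cell cannot be told apart.

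The respiratory chain genes marked out a pair of arrays within their own pools. CON 3 gave the highest signal of its pool for 80 of the 91 genes (87.9%), and ASP+CGP 3 for 75 of 91 (82.4%), whereas over all genes tested these arrays were highest for 49.3% and 35.9%. On CON 3 the genes lay a median of 0.15 above the mean of the other arrays of the pool on the log2 scale, with 82 of 91 above 0, and on ASP+CGP 3 a median of 0.14 above, with 80 of 91 above 0. The corresponding medians over all genes were 0.03 and -0.01.

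The displacement was above 0 by median in every complex, against 0.03 and -0.01 over all genes on CON 3 and ASP+CGP 3. For the complex I core it was close to that of all genes on CON 3. By median it was 0.17 and 0.18 on CON 3 and ASP+CGP 3 for the complex I accessory subunits, 0.16 and 0.14 for complex IV, 0.14 and 0.15 for complex V, 0.18 and 0.11 for complex II, 0.09 and 0.10 for complex III, 0.09 and 0.08 for the assembly factors, and 0.04 and 0.04 for the complex I core. All 17 genes of complex IV lay above 0 on both arrays. In total 77 genes lay above and 6 below 0 on both arrays. Those below were Sdha, the flavoprotein of complex II, Uqcrc1 and Uqcrc2, the core proteins of complex III, Atp5a1 and Atp5b, the alpha and beta subunits of the catalytic head of ATP synthase, and the assembly factor Ndufaf5. Ndufb3, an accessory subunit of complex I, measured 8.56, 8.58 and 8.94 in CON and 8.37, 8.46 and 8.83 in ASP+CGP. In both pools the third array stood clear of the others.

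Other gene groups moved on the same arrays. Genes of mitochondrial ribosomal proteins were displaced by a median of 0.13 and 0.12 on CON 3 and ASP+CGP 3, those of cytosolic ribosomal proteins by 0.11 and 0.14, astrocyte markers by -0.14 and -0.15, and glycolysis genes by -0.08 and -0.13. What sets these arrays apart was not tested. Because CON enters 3 of the 4 comparisons below, medians are given with all arrays and also with CON 3 and ASP+CGP 3 left out.

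**Figure D1:**
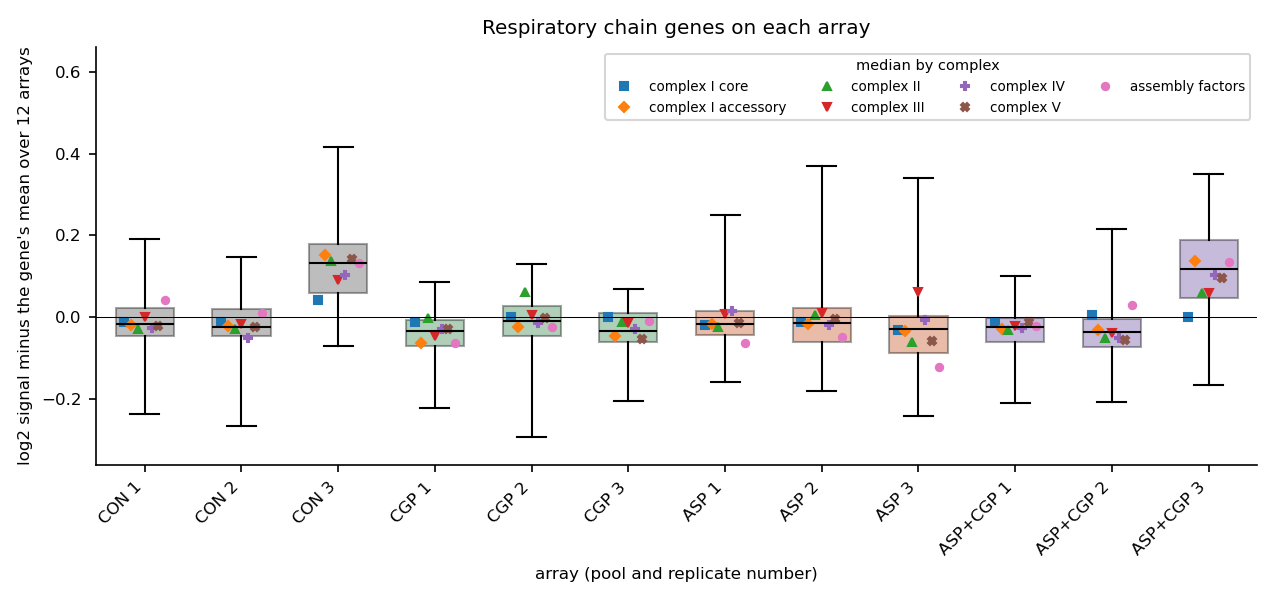
Log2 signal of the 91 respiratory chain genes minus each gene's mean over the 12 arrays (vertical axis), by array (horizontal axis). Boxes span the quartiles with the median as a line, whiskers reach the lowest and highest gene, and coloured marks are the medians of each complex. The boxes of CON 3 and ASP+CGP 3 lie above 0 and those of the other 10 arrays lie around or slightly below it.

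The first comparison asked which genes chronic aspartame intake left at another level in the adult hypothalamus. Among the respiratory chain genes Cox7a1, the heart and skeletal muscle form of a complex IV subunit that is also abundant in brown fat, was upregulated in ASP, and Ndufaf5, an assembly factor of complex I, was downregulated. These were 2 of 91 genes (2.20%) at an adjusted p under 0.05 in limma, against 4.08% of all genes tested. A fold change over 1.4 in addition was reached by 0 of the 91 genes and by 1.05% of all genes. With Cox8b counted it was 1 of 92, Cox8b itself, and 3 of 92 passed the adjusted p. Unadjusted, p fell under 0.05 in 12 of 91 (13.2%), 3 higher and 9 lower, against 16.9% of all genes, and a fit in which the spread was not moderated also called Cox7a1 and Ndufaf5.

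Cox7a1 measured 7.72, 7.80 and 7.91 in CON, 7.74, 7.72 and 7.64 in CGP, 8.09, 8.21 and 8.18 in ASP, and 7.66, 7.63 and 7.78 in ASP+CGP. All 3 ASP arrays lay above the 9 arrays of the other pools. The log2 difference between ASP and CON was 0.35 ± 0.06 (SE), or 1.27-fold, with an adjusted p of 0.0023 in limma, and it remained past the threshold without each of the 12 arrays in turn. Cox7a2, the widely expressed form of the same subunit, measured 11.24, 11.15 and 11.35 in CON and 11.22, 11.13 and 11.15 in ASP, with a difference of -0.08.

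Brown adipose markers were among several groups of markers that were higher in ASP, as Cox7a1 was. Ucp1, the uncoupling protein of brown fat, was higher in ASP than in CON by 2.58 ± 0.06 on the log2 scale, and Cox8b, a complex IV subunit form of heart, muscle and brown fat, by 1.84 ± 0.05. Cidea, a lipid droplet protein, was higher by 0.97 ± 0.07. The summed signal of the 6 brown adipose markers ranged from 9.61 to 9.62 on the log2 scale in CON, from 9.66 to 9.71 in CGP, from 10.7 to 10.8 in ASP, and from 9.57 to 9.64 in ASP+CGP. The summed signal of the 13 striated muscle markers ranged from 11.2 to 11.3 over all 12 arrays, with a median difference of -0.02 between ASP and CON. Median differences between ASP and CON were 0.81 for the brown adipose, 2.67 for the white adipose, 4.01 for the adrenal cortex and 1.76 for the exocrine pancreas markers. The part of any of these tissues in the Cox7a1 signal was not tested.

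Ndufaf5, whose product modifies a complex I core subunit during assembly, measured 8.52, 8.54 and 8.52 in CON, 8.47, 8.43 and 8.40 in CGP, 8.25, 8.31 and 8.24 in ASP, and 8.37, 8.32 and 8.30 in ASP+CGP. The 3 CON arrays lay above all 9 arrays of the treated pools, and the ASP and ASP+CGP arrays overlapped. The difference between ASP and CON was -0.26 ± 0.04, with an adjusted p of 0.00146 in limma, and it remained past the threshold without each of the 12 arrays in turn. The assembly factor Ndufaf3 and the accessory subunit Ndufb8 were likewise below the CON arrays on all 9 treated arrays, without passing the adjusted threshold in any comparison. These were 3 of 91 genes, and 1.48% of all genes showed the same order.

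The promoter windows of both called genes and of the paired form of Cox7a1 are shown to let their letters be compared. RefSeq windows on GRCm38.p6, from 250 bases before to 50 bases after an annotated start, were matched by symbol for 75 of the 91 genes. Capitals mark any match, on either strand, to 7 motifs, which are GCGCATGC for nuclear respiratory factor 1 (NRF1), CCGGAAG for the ETS family, AAGATGG for YY1, the CCAAT box, the GC box with the letters GGGCGG, the TATA motif with the letters TATAAA and the E-box with the letters CAGCTG. Matches of different motifs may overlap. These motifs were chosen from 12 after their shares had been seen. The windows lie at chr7:30183921-30184220 on the plus strand for Cox7a1, chr9:79759804-79760103 on the minus strand for Cox7a2 and chr2:140170396-140170695 on the plus strand for Ndufaf5, each written 5′ to 3′ on the strand of its gene.
Cox7a1: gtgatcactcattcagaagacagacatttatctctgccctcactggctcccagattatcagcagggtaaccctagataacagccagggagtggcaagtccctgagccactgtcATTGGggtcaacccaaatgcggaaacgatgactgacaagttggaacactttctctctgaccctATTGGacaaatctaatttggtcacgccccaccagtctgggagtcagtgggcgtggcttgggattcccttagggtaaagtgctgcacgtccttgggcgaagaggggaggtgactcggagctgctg
Cox7a2: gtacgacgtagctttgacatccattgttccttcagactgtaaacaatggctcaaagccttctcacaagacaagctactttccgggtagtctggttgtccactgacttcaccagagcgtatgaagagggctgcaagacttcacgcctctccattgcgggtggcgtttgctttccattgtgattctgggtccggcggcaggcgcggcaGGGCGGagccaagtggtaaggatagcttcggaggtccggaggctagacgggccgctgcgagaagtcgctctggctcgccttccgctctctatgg
Ndufaf5: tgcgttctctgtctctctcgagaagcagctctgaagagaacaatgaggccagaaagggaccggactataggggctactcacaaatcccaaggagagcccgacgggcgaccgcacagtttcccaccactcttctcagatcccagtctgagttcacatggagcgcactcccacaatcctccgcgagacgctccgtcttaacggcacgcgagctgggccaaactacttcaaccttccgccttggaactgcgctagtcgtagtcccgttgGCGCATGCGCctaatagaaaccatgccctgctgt

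The Cox7a1 window held CCAAT on the opposite strand at 2 places and the Cox7a2 window a single GC box. The Ndufaf5 window held overlapping matches to the NRF1 motif on both strands, which lie after the start. Of the 75 genes with a window, 12 (16.0%) held the NRF1 motif, against 3.05% of 27025 mouse genes with a window, and 21 (28%) held the ETS motif, against 9.93%. The YY1 motif was found in 13.3% against 7.28%, CCAAT in 42.7% against 41.1%, the GC box in 48.0% against 38.2%, TATAAA in 9.33% against 15.7%, and the E-box in 6.67% against 18.3%. A match describes letters in the window and is not a measured binding site.

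By complex, the differences between ASP and CON were small. The median over the 91 genes was -0.05 on the log2 scale, against -0.01 over all genes. Below 0 lay 69 of 91 genes (75.8%), against 56.4% of all genes. With CON 3 and ASP+CGP 3 left out the median was -0.01. With all arrays it was -0.03 for the complex I core, -0.07 for the accessory subunits, -0.03 for complex II, 0.00 for complex III, -0.01 for complex IV, -0.07 for complex V and -0.12 for the assembly factors. Left without those arrays, the same medians were -0.01, -0.01, 0.00, 0.02, 0.03, -0.01 and -0.09.

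All 11 assembly factors lay below 0 in ASP with all arrays, where 56.4% of all genes did, and 9 of 11 without CON 3 and ASP+CGP 3. Apart from Ndufaf5 none passed the adjusted threshold. Ndufaf6, a complex I assembly factor, differed by -0.25 ± 0.08 (adjusted p = 0.0863) and Ndufaf2 by -0.19 ± 0.12 (adjusted p = 0.427). Ndufb3 differed by -0.26 ± 0.12 (adjusted p = 0.28). Without CON 3 the difference was -0.05 for Ndufaf2 and -0.14 for Ndufb3. Ndufaf6 measured 8.28, 8.24 and 8.45 in CON and 8.13, 8.03 and 8.04 in ASP, without overlap. A gene named for its large difference tends to be separate. Ndufaf6 passed when CON 3 and ASP+CGP 3 were left out (-0.19, adjusted p = 0.0498) or ASP+CGP 3 alone. The shares of all genes past the threshold in these fits were 5.64% and 5.53%.

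Of the 6 measured genes with a tissue-restricted pattern in complex IV, Cox7a1 alone passed. Cox6a2, the heart and skeletal muscle form of subunit VIa, measured 9.02, 9.0 and 9.23 in CON and 9.25, 9.27 and 9.38 in ASP, with a difference of 0.22 ± 0.06 and an adjusted p of 0.0811. Ndufa4l2, a paralog of Ndufa4 that is induced in low oxygen, measured 7.37, 7.47 and 7.60 in CON and 7.65, 7.62 and 7.82 in ASP, with a difference of 0.22 ± 0.07 and an adjusted p of 0.0964. In both genes the ASP arrays lay above the CON arrays by a narrow margin. Without CON 3 both passed, with differences of 0.29 for Cox6a2 (adjusted p = 0.0117) and 0.28 for Ndufa4l2 (adjusted p = 0.0379). On CON 3 they lay 0.22 and 0.18 above the mean of the other CON arrays, so leaving it out raises both differences. The share of all genes past the threshold in that fit was 3.54%. Cox4i2, the lung form of subunit IV, differed by 0.00, the testis forms Cox6b2 and Cox8c by -0.11 and 0.05, and the 7 widely expressed partners by -0.08 to 0.05.

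Of the 4 subunits of complex II, 0 passed in any comparison in limma, at an adjusted or an unadjusted p under 0.05. Between ASP and CON, Sdha differed by -0.04 ± 0.04, Sdhb, the iron-sulfur subunit, by -0.03 ± 0.07, and the membrane anchors Sdhc and Sdhd by -0.02 ± 0.05 and -0.09 ± 0.07. Sdhc measured 11.32, 11.37 and 11.54 in CON and 11.39, 11.40 and 11.38 in ASP, so that the ASP arrays lay within the range of CON.

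The precision sets what could have been seen. The 95% interval of a difference reached a median of 0.13 to either side on the log2 scale, and for 90 of the 91 genes the interval of ASP vs CON lay inside a 1.4-fold change in either direction, with Ndufb3 as the exception. For 69 of 91 it lay inside a 1.2-fold change. These intervals cover the spread between arrays only.

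**Figure D2:**
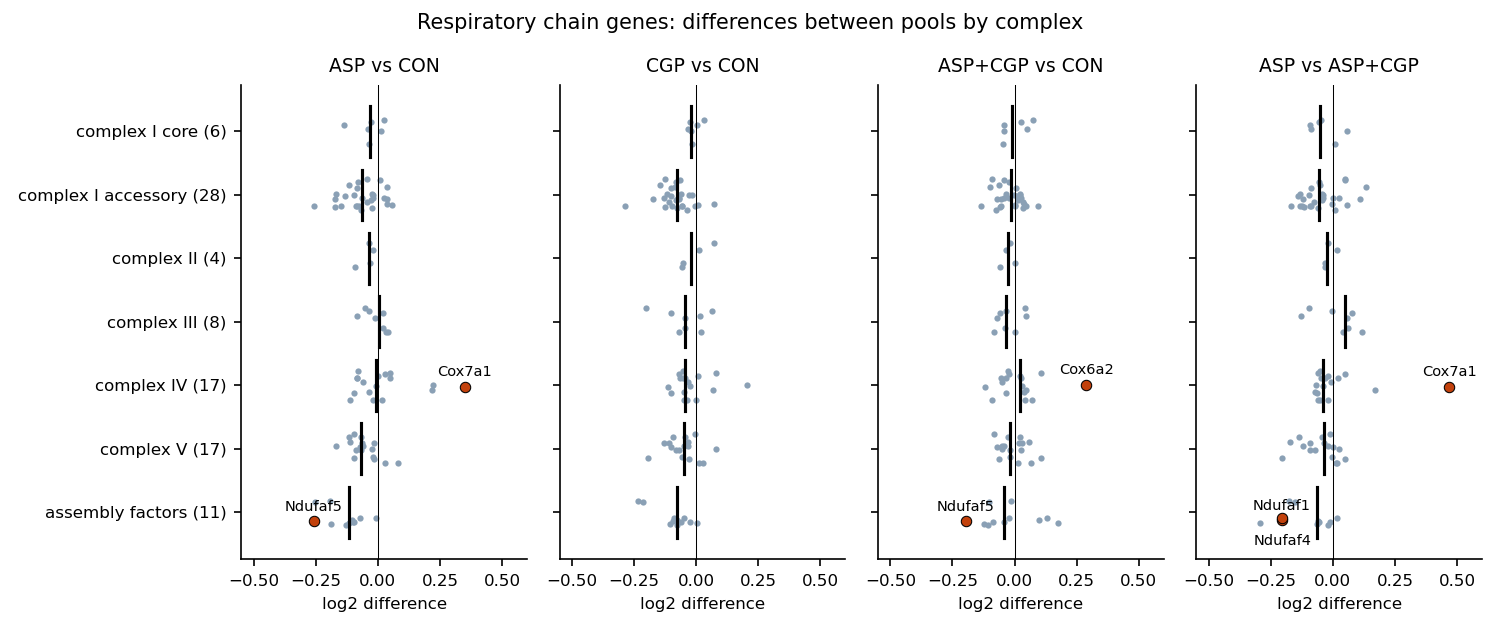
Log2 differences of the 91 respiratory chain genes (horizontal axis) by complex (vertical axis, number of genes in brackets) in the 4 comparisons. Each point is a gene, black lines are medians, and large orange points passed an adjusted p of 0.05 in limma. Named genes that passed were Cox7a1 and Ndufaf5 in ASP vs CON, Cox6a2 and Ndufaf5 in ASP+CGP vs CON, and Cox7a1, Ndufaf1 and Ndufaf4 in ASP vs ASP+CGP.

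Neighbouring pathways were read in the same fit. Of 19 measured genes of mitochondrial fatty acid oxidation, 9 were upregulated in ASP relative to CON at an adjusted p under 0.05 in limma. The share of all genes past it was 4.08%. The median difference over the list was 0.17, with 2 genes below 0. Acaa2, the thiolase of the last step, was higher by 0.50 ± 0.05, Hadh by 0.47 ± 0.05 and Acadm, the medium-chain acyl-CoA dehydrogenase, by 0.42 ± 0.06. Among 16 genes of the tricarboxylic acid cycle and its entry Pcx, pyruvate carboxylase, was higher (0.25 ± 0.05), among 14 glycolysis genes Hk2, a hexokinase, was higher (0.23 ± 0.05), and among 10 mitochondrial carriers and porins Ucp1 was higher. Adipose and adrenal markers moved in the same direction in the same pool, and their part in these differences was not tested.

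The genes closest to the chain did not pass in ASP vs CON in limma. The shares of all genes tested were 4.08% at an adjusted and 16.9% at an unadjusted p under 0.05. There were 0 of 33 further assembly factors and electron carriers, 0 of 19 regulators of mitochondrial biogenesis, 0 of 77 mitochondrial and 0 of 62 cytosolic ribosomal protein genes at an adjusted p under 0.05, and 4, 0, 12 and 5 at an unadjusted p under 0.05. Ppargc1a, the coactivator of mitochondrial biogenesis, differed by -0.03 ± 0.06, Nrf1 by 0.01 ± 0.04 and Tfam, the packaging factor of mitochondrial DNA, by 0.01 ± 0.05. Of the 13 chain subunits encoded in mitochondrial DNA 2 were measured, and COX2 and ND3 differed by 0.01 ± 0.05 and -0.03 ± 0.06.

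The second comparison asked what remained in adult mice after developmental NMDA receptor antagonism alone. In CGP vs CON 0 of the 91 genes passed an adjusted p of 0.05 in limma, against 0.628% of all genes, and 0 passed with a fold change over 1.4, against 0.111%. The unadjusted p was under 0.05 in 9 of 91 (9.89%), 1 higher and 8 lower, against 11.6% of all genes. The fit without moderation also called 0.

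The median difference was -0.06 against 0.01 over all genes, and -0.01 with CON 3 and ASP+CGP 3 left out. Below 0 lay 73 of 91 (80.2%), against 41.9% of all genes. By complex the median was -0.02 for the complex I core, -0.08 for the accessory subunits, -0.02 for complex II, -0.05 for complex III, -0.04 for complex IV, -0.05 for complex V and -0.08 for the assembly factors, and without these arrays 0.01, -0.03, 0.03, -0.01, 0.02, -0.01 and -0.05. The lowest values were Ndufb3 with -0.29 ± 0.12, Ndufaf2 with -0.24 ± 0.12, Ndufaf6 with -0.21 ± 0.08 and Uqcrb, a small subunit of complex III, with -0.20 ± 0.07. Without CON 3 they were -0.16 for Ndufb3, -0.09 for Ndufaf2, -0.15 for Ndufaf6 and -0.18 for Uqcrb, so that Ndufaf2 was no longer among the lowest. Uqcrb measured 12.34, 12.24 and 12.36 in CON and 12.20, 11.97 and 12.16 in CGP, so that the CGP arrays lay below the CON arrays. Cox6a2 had the highest difference, 0.21 ± 0.06 (adjusted p = 0.226), with signals of 9.35, 9.25 and 9.26 in CGP, all above the highest CON array. Without CON 3, on which Cox6a2 read high, it passed at 0.28 (adjusted p = 0.0464), and 0.89% of all genes passed in that fit. The subunits COX2 and ND3 encoded in mitochondrial DNA differed by -0.13 ± 0.05 (adjusted p = 0.352) and -0.16 ± 0.06 (adjusted p = 0.299), both under 0.05 before adjustment. For 90 of 91 genes the 95% interval lay inside a 1.4-fold change, again with Ndufb3 outside.

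In ASP+CGP vs CON, Cox6a2 was upregulated and Ndufaf5 downregulated, 2 of 91 genes (2.20%) at an adjusted p under 0.05 in limma against 1.75% of all genes, and 0 with a fold change over 1.4 against 0.18%. Cox6a2 measured 9.29, 9.37 and 9.45 in ASP+CGP, and the difference was 0.29 ± 0.06, or 1.22-fold, with an adjusted p of 0.0412. It was the 1 gene of 91 whose 9 treated arrays all lay above the 3 CON arrays, an order that 1.2% of all genes showed. The call was kept on leaving out CON 3 or ASP 3 and was lost without any other single array, with values from 0.24 to 0.36 over the fits that left out an array of CON or ASP+CGP. The difference of Ndufaf5 was -0.20 ± 0.04 (adjusted p = 0.0244), and this call was lost without CON 1, CON 2 or ASP+CGP 2. With CON and ASP+CGP alone and the replicate number as a block, Cox6a2 passed (adjusted p = 0.0478) and Ndufaf5 did not (adjusted p = 0.114).

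In ASP+CGP vs CON 51 of 91 genes (56.0%) lay below 0, against 52.0% of all genes. The median over the 91 genes was -0.02, and -0.00 over all genes. It was 0.04 without CON 3, -0.06 without ASP+CGP 3, -0.02 without both, and 0.00 after a further quantile normalization. The unadjusted p was under 0.05 in 3 of 91 genes (3.30%), against 15.4% of all genes. By complex it ran from -0.04 for complex III and the assembly factors to 0.02 for complex IV, and without both arrays from -0.04 for complex III to 0.01 for complex IV. Sdhaf3, an assembly factor of complex II, differed by 0.18 ± 0.09 (adjusted p = 0.388), and without CON 3 it passed at 0.30 (adjusted p = 0.0379). On CON 3 it lay 0.38 above the mean of the other CON arrays, so leaving that array out raises the difference. The share of all genes past the threshold in that fit was 2.94%. Ndufaf4 differed by 0.13 ± 0.06 (adjusted p = 0.284). Cox7a1 differed by -0.12 ± 0.06 (adjusted p = 0.348). For all 91 genes the 95% interval lay inside a 1.4-fold change.

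**Figure D3:**
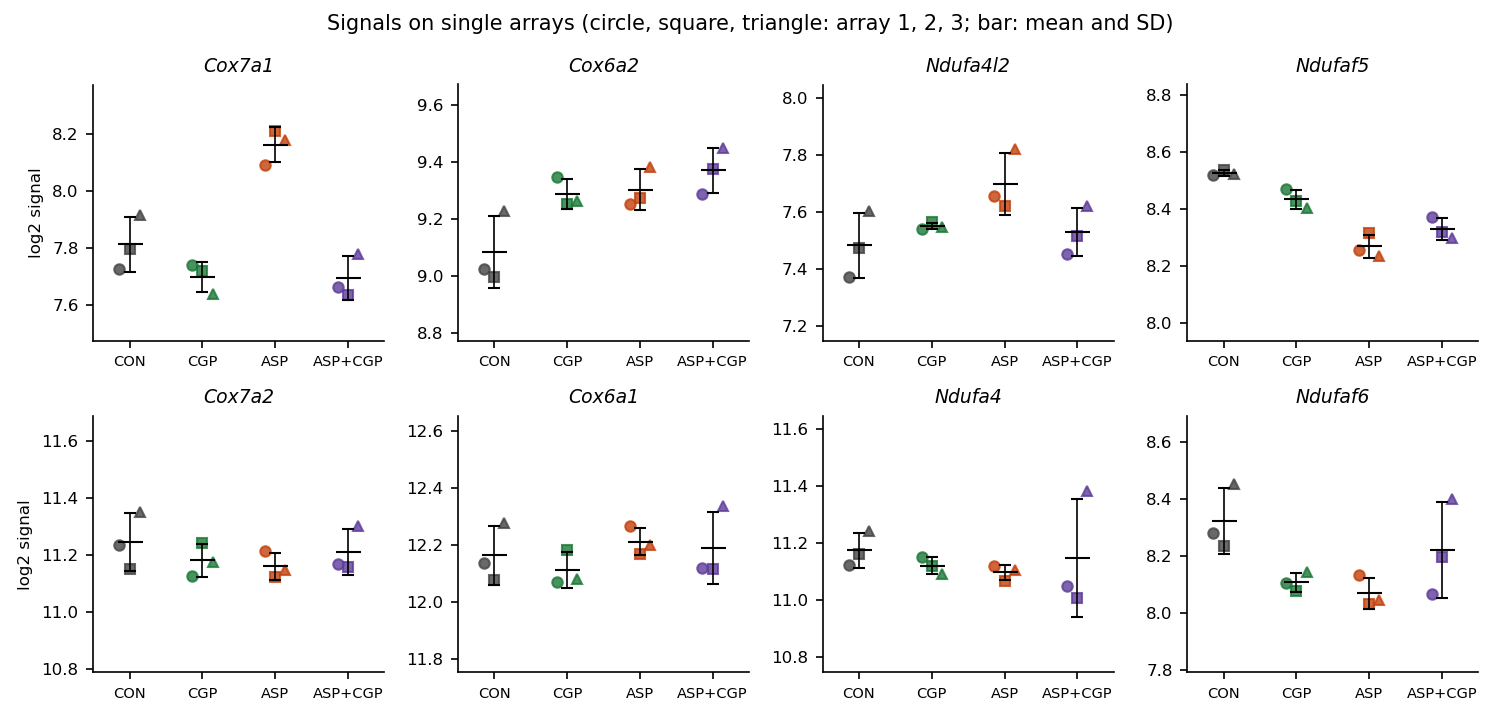
Log2 signals (vertical axes, each spanning 0.9 log2 units) of 8 respiratory chain genes on the 3 arrays of each pool (horizontal axes), with the mean and the SD over arrays in black. Cox7a1 stands higher on the 3 ASP arrays than on all others, Cox6a2 is lowest in CON, and Ndufaf5 is highest in CON, while in Cox7a2, Cox6a1 and Ndufa4 the pools overlap.

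The fourth comparison asked how aspartame-exposed mice with and without the antagonist differed. In ASP vs ASP+CGP, Cox7a1 was higher in ASP, and Ndufaf1 and Ndufaf4, assembly factors of complex I, were lower. These were 3 of 91 genes (3.30%) at an adjusted p under 0.05 in limma against 6.92% of all genes, and 0 of 91 with a fold change over 1.4 against 1.27%. With Cox8b counted they were 4 of 92 and 1 of 92. Cox7a1 differed by 0.47 ± 0.06, or 1.38-fold (adjusted p = 0.00013), and remained past the threshold without each of the 12 arrays in turn. The summed signal of the brown adipose markers was likewise higher on every ASP array than on every ASP+CGP array. The same held for the white adipose, adrenal cortex and exocrine pancreas markers.

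Ndufaf1 measured 10.21, 10.09 and 10.09 in ASP and 10.29, 10.37 and 10.35 in ASP+CGP, a difference of -0.21 ± 0.05 (adjusted p = 0.0362). Ndufaf4 measured 8.24, 8.26 and 8.20 in ASP and 8.31, 8.53 and 8.48 in ASP+CGP, a difference of -0.20 ± 0.06 (adjusted p = 0.0442). In both genes the pools did not overlap, though genes named for passing or for a large difference tend to be separate. Sdhaf3 had the lowest difference, -0.29 ± 0.09 (adjusted p = 0.0797), with 9.35, 9.29 and 9.34 in ASP and 9.47, 9.63 and 9.75 in ASP+CGP, again without overlap. It passed with the replicate block (adjusted p = 0.0353), with arrays centred on their median, in a fit of both pools alone, and without CON 1, CON 3 or ASP+CGP 1. The call of Ndufaf1 was lost in 6 of the 12 fits that left out an array (CGP 1, CGP 2, ASP 2, ASP 3, ASP+CGP 2 or ASP+CGP 3), and that of Ndufaf4 was lost in 9 of 12, being kept without CON 1, CON 3 or ASP+CGP 1. With CON 3 and ASP+CGP 3 left out together 7 of 91 genes passed, against 9.92% of all genes. Higher in ASP were 5, namely Cox7a1, Ndufa4l2 (0.21), the complex I accessory subunits Ndufa1 (0.24) and Ndufa7 (0.20), and Uqcr10, a small subunit of complex III (0.17). Lower in ASP were 2, Ndufaf1 and Sdhaf3 (-0.22), and Ndufaf4 did not pass.

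Over the 91 genes the median of ASP vs ASP+CGP was -0.04 against -0.01 over all genes, and it was 0.00 without CON 3 and ASP+CGP 3. Below 0 lay 66 of 91 (72.5%), against 53.9% of all genes. The unadjusted p was under 0.05 in 9 of 91 genes (9.89%), against 21.1% of all genes. By complex the medians ran from -0.07 for the assembly factors to 0.05 for complex III, and without both arrays from -0.06 to 0.07 for the same groups. In complex III Uqcrc1, a core protein, was at 0.12 ± 0.05 (adjusted p = 0.175). Of the 19 fatty acid oxidation genes 13 were higher in ASP than in ASP+CGP at an adjusted p under 0.05 in limma. The share of all genes past it was 6.92%. Their median was 0.24, and 0 of the 19 lay below 0. The comparisons share pools with one another, CON in 3 of them and ASP and ASP+CGP in 2 each, so a value of 1 pool enters several differences.

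**Figure D4:**
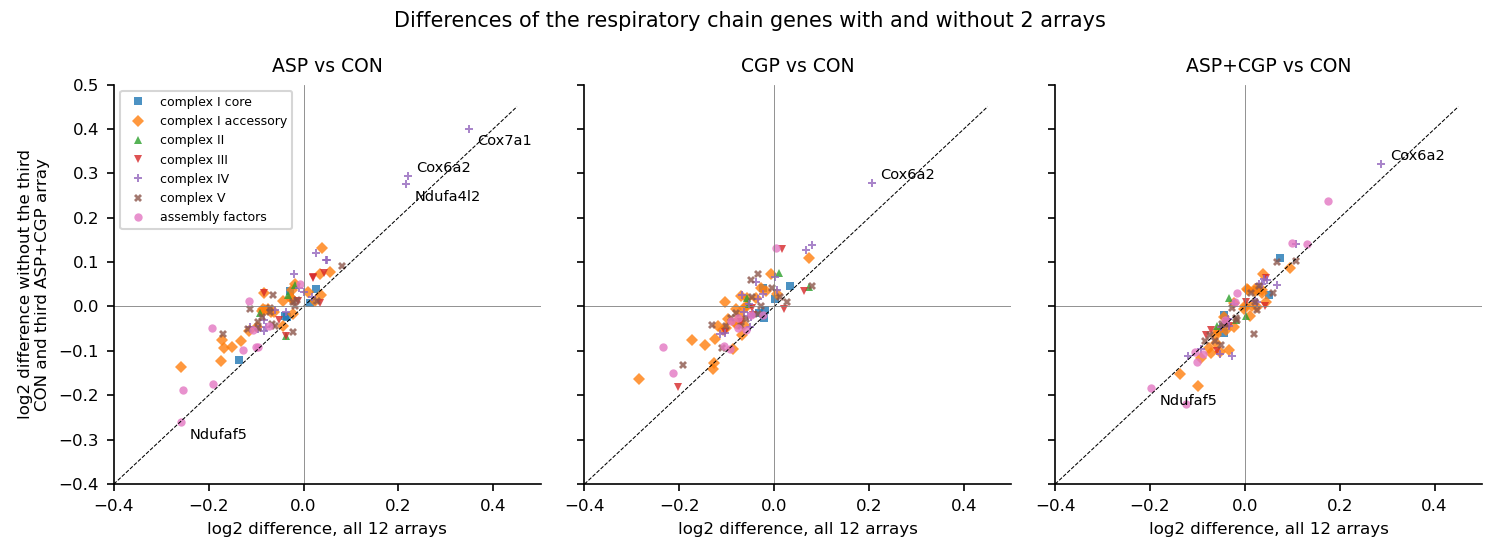
Log2 differences of the 91 respiratory chain genes without CON 3 and ASP+CGP 3 (vertical axis) against those with all 12 arrays (horizontal axis) in the comparisons with CON, coloured by complex, with the line of equality dashed. In ASP vs CON and CGP vs CON most points lie above the line, and the medians go from -0.05 to -0.01 and from -0.06 to -0.01.

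The interaction asked whether the difference with aspartame changed in the presence of the antagonist. It passed an adjusted p of 0.05 in limma for 2 of 91 genes (2.20%), Atp5md and Cox7a1, against 4.01% of all genes, and an unadjusted p of 0.05 for 21 of 91 (23.1%), 19 higher and 2 lower, against 17.9%. The median interaction was 0.09 over the 91 genes and -0.01 over all genes, and 72 of 91 lay above 0. Below 0 lay 19 of 91 (20.9%), against 53.3% of all genes. This contrast adds ASP+CGP and CON, so that a gene high on CON 3 or ASP+CGP 3 is raised in it, and with both arrays left out the median was -0.01. Atp5md, a small subunit of the membrane part of ATP synthase, measured 13.01, 12.96 and 13.17 in CON, 12.81, 12.90 and 12.85 in CGP, 13.03, 12.93 and 12.89 in ASP and 13.10, 13.07 and 13.29 in ASP+CGP. The CGP arrays lay below the CON arrays, and the ASP and ASP+CGP arrays overlapped with them. Of the interaction of Atp5md, 0.40 ± 0.09 (adjusted p = 0.0322), 0.27 was left without CON 3 and ASP+CGP 3 (adjusted p = 0.0513). The interaction of Cox7a1 was -0.35 ± 0.08 (adjusted p = 0.0267).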

How the data were processed

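RNA pools of the hypothalamus were measured on Affymetrix Mouse Gene 1.0 ST arrays. The deposited log2 signals were made by the authors in Partek with RMA, which sets the arrays to a common distribution and compresses changes near background. Genes were named from the platform's annotation. Of 29149 probe sets the 19019 with a single symbol were used, with the highest mean per gene. Cox7c and Ndufb4 were not analysed here. Of 18 respiratory chain genes with several probe sets, 2 had probe sets that differed in the sign of ASP minus CON.

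All 12 arrays were fitted with limma 3.58.1 in R 4.3.3 (a mean per group, 8 residual and 5.43 prior degrees of freedom, Benjamini-Hochberg adjustment over 17186 genes per contrast), after tests on simulated data. Values after ± are standard errors, and the number of arrays limits the precision. Genes were named where they passed a threshold, were among the 4 highest or 4 lowest differences of a comparison, were tissue-restricted forms or complex II subunits, or led another list. The genes and lists were chosen with earlier results of these data known, and Atp5b, Cox7a2, Ndufa1, Ndufaf3, Ndufb8, Uqcr10, Uqcrc2, Ppargc1a, Nrf1 and Tfam were named after their values were seen. Deviations of same-numbered CON and ASP+CGP arrays from their pool means correlated at 0.170, 0.256 and 0.541 across genes, so these pools were also fitted with a replicate block, although no label gives the number as a batch. Alternatives covered filters, probe sets, normalization, test, adjustment, pairing and left-out arrays.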

Additional observations from a re-analysis of the deposited data

Results flagged for a closer look

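The difference with aspartame was not the same with and without the antagonist for 2 respiratory chain genes, by the interaction term in limma. These were 2 of 91 (2.20%), against 4.01% of all genes. For Atp5md the interaction was 0.40 ± 0.09 (SE, adjusted p = 0.0322), made of -0.10 for ASP minus CON and 0.30 for ASP+CGP minus CGP. With CON 3 and ASP+CGP 3 left out it was 0.27 (adjusted p = 0.0513), and the call was lost in 7 of the 12 fits that left out an array (CON 1, CON 3, CGP 1, CGP 3, ASP 2, ASP 3 or ASP+CGP 3). Atp5md has several probe sets, and with the lowest in place of the highest it was not called.

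For Cox7a1 the interaction was -0.35 ± 0.08 (adjusted p = 0.0267), made of 0.35 for ASP minus CON and -0.01 for ASP+CGP minus CGP. In the same contrast 4 of 6 brown adipose, 8 of 9 white adipose and 10 of 10 adrenal cortex markers were also lower. So were 8 of 8 exocrine pancreas and 0 of 13 striated muscle markers, at an adjusted p under 0.05 in limma. The part of these tissues in the interaction of Cox7a1 was not tested. The call of Cox7a1 was kept with CON 3 and ASP+CGP 3 left out together and was lost in 7 of the 12 fits that left out an array (CON 1, CGP 1, CGP 2, ASP 2, ASP 3, ASP+CGP 1 or ASP+CGP 2).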

How the results depend on the processing

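The calls of Cox7a1 and Ndufaf5 in ASP vs CON and of Cox7a1 in ASP vs ASP+CGP held under every alternative run, at adjusted p-values up to 0.0182, 0.0122 and 0.00366. Among genes that passed or were among the 4 highest or 4 lowest differences of a comparison, no gene changed sign in that comparison. Sdhb and Sdhc, named as complex II subunits, changed sign in ASP vs CON. They were at 0.02 and 0.05 without CON 3 and ASP+CGP 3. The set's median changed sign as well. In ASP+CGP vs CON it was 0.04 without CON 3, 0.01 without ASP+CGP 1 or ASP+CGP 2 and 0.00 after a further quantile normalization. Without CON 3 and ASP+CGP 3 (or ASP+CGP 3 alone) it was 0.00 in ASP vs ASP+CGP. Without both it was -0.01 in the interaction. The number of respiratory chain genes past the adjusted threshold ranged over the fits that left out an array from 2 to 4 in ASP vs CON, 0 to 1 in CGP vs CON, 0 to 3 in ASP+CGP vs CON, 1 to 5 in ASP vs ASP+CGP and 0 to 3 in the interaction. In the same order, the shares of all genes over these fits ran from 2.8% to 5.53%, 0.285% to 1.09%, 0.838% to 2.94%, 4.12% to 9.46% and 2.64% to 4.35%. With CON 3 and ASP+CGP 3 left out together the number of respiratory chain genes was 5 in ASP vs CON, against 5.64% of all genes. In the same fit it was 1 in CGP vs CON, against 1.77%, and 7 in ASP vs ASP+CGP, against 9.92%. With the replicate block over all arrays it was 4 in ASP vs CON (Cox6a2 and Ndufa4l2 in addition), against 4.36% of all genes. With CON and ASP+CGP alone and a replicate block, chosen after seeing the data, it was 1 in ASP+CGP vs CON, against 0.838%. The block changed no other count of calls by over 1.5 times. Without moderation of the spread the number of respiratory chain genes past it was 1 in ASP+CGP vs CON, 1 in ASP vs ASP+CGP and 0 in the interaction. The shares of all genes there were 1.65%, 5.94% and 3.03%. With the groups of the comparison alone the number of respiratory chain genes was 0 in ASP+CGP vs CON, against 0.396% of all genes. With adjustment over all contrasts together it was 1 in ASP vs ASP+CGP, against 5.42%. With the lowest probe set of a gene, also added later, it was 1 in the interaction (Cox7a1), against 4% of all genes. With a fold change over 1.2 in place of 1.4, 1 gene was differentially expressed in each of ASP vs CON, ASP+CGP vs CON and ASP vs ASP+CGP. With Cox8b counted, also chosen after seeing the data, that count was 1 in ASP vs CON and 1 in ASP vs ASP+CGP at 1.4-fold, against 1.05% and 1.27% of all genes. The cause of these changes was not tested. Changes in mice, as opposed to pools, cannot be read from these arrays.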
